A study of Homo sapiens with 2 samples.

Results

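The regions described here are DEK ChIP-seq peaks whose summits lie in 8 gene-free stretches around the centromeres of chromosomes 1, 5, 6, 7, 10, 11, 17 and 19. The summit, the position of highest coverage in a peak, decided membership: 622 of 19015 peaks of replicate 1 (3.27%) and 873 of 24457 peaks of replicate 2 (3.57%) fell inside on chromosomes 1 to 22 and X. Both libraries were made from 786-O, a cell line derived from a human renal carcinoma, and carry a wild-type genotype entry, the label negative control, Cas9 in their description and an antibody entry naming DEK. They form 1 group of 2 replicates with the same culture and library protocols, no other agent is named, and no edited, input or other-antibody library was analysed here. Nothing in the labels states separate cultures for the 2 replicates, so their spread could be purely technical. The blocks were chosen by their peak counts, from the summit positions of these same 2 lists, so their peak counts and values are given as descriptions and carry no test.

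DEK is an abundant nuclear protein that binds DNA and histones, acts as a histone chaperone and has been linked to the upkeep of heterochromatin. Human centromeres are built of alpha satellite, a short monomer repeated head to tail, and in many arrays a fixed row of monomers recurs as a higher-order repeat. The arrays of chromosomes 1, 5 and 19 belong to a family of closely similar alpha satellite, and the heterochromatin next to several centromeres also holds other satellites. The GRCh38 assembly fills the centromeres with modelled arrays whose order of repeats is not that of a sequenced chromosome, and it leaves large heterochromatic stretches as gaps. Reads from such repeats often match many places, and stretches of this kind are commonly masked in ChIP-seq work. The sources used here do not give how the aligner treated them, and the part this has in the values below was not tested.

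All 8 blocks were free of genes in the RefSeq table of GRCh38.p14, with 0 annotated genes inside each, and every block ran from the end of 1 gene entry to the start of the next. They are described here in the files' GRCh38 (hg38) coordinates and in order of their peak counts in replicate 1. The block of chromosome 1 (chr1:121571889-143299517) spanned 21.7 Mb and held 170 peaks in replicate 1 and 236 in replicate 2. The block of chromosome 5 (chr5:45696381-50396191) spanned 4.70 Mb, ended at EMB, which encodes the membrane glycoprotein embigin, and held 135 and 189 peaks. The block of chromosome 19 (chr19:24179012-27681071) held 110 and 166 peaks in 3.5 Mb. Together these 3 blocks held the larger part of the members in both replicates.

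The block of chromosome 10 (chr10:38719383-42149318) held 69 and 92 peaks in 3.43 Mb, and that of chromosome 7 (chr7:57868450-60991901) 53 and 72 in 3.12 Mb. The smallest block, on chromosome 6 (chr6:58121086-60281437), held 33 and 45 peaks in 2.16 Mb. The blocks of chromosome 17 (chr17:22705637-26981691) and chromosome 11 (chr11:50420632-54591479) were the sparsest. Chromosome 17 held 28 and 32 peaks in 4.28 Mb, and chromosome 11 held 24 and 41 in 4.17 Mb. Every block had more peaks in replicate 2, whose list is the longer one.

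The density of summits differed widely between blocks. Chromosome 19 had 31.4 peaks per Mb in replicate 1 and 47.4 in replicate 2, chromosome 5 had 28.7 and 40.2, and chromosome 11 had 5.75 and 9.83. The remaining blocks had 6.55 to 20.1 peaks per Mb in replicate 1 and 7.48 to 26.8 in replicate 2. Over all 8 blocks the density was 13.2 and 18.5 peaks per Mb, against 6.17 and 7.91 in the sequence outside them. The ratio was 2.24 ± 0.143 (SD, n = 2), and among peaks of at least 5-fold enrichment it was 14.6. Taken singly, chromosome 11 in replicate 1 (5.75) and chromosome 17 in replicate 2 (7.48) lay below the density outside. The lengths used include any assembly gaps, which were not read, and 18.0 Mb of chromosome 1 without a summit, described below.

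Outside the blocks, 22 other gene-free stretches of at least 1 Mb showed far fewer peaks, 72 in replicate 1 and 139 in replicate 2 over 130 Mb. Just below the 24 peaks of the chromosome 11 block in replicate 1 stood a stretch of chromosome 16 with 12 peaks in replicate 1 and 13 in replicate 2. Another stretch of chromosome 2 (chr2:92035128-94192530) differed most between replicates, with 5 and 33 peaks. Its count in replicate 2 was above the 32 of the chromosome 17 block. In 5 of the 22 no peak was listed in either replicate. Next to the chromosome 7 block, beyond a single annotated pseudogene, a further gene-free 2.02 Mb held 1 and 2 peaks. A missing peak can mean that none passed the authors' threshold or that there was no sequence for reads to match. Assembly gaps were not read, so these cannot be told apart, and the 130 Mb include any such gaps.

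The first summit inside a block lay 41.3 to 763 kb from its lower edge, and the last lay 23.7 to 729 kb from its upper edge. Within 1 Mb on either side of the 8 blocks there were 45 peaks in replicate 1 and 59 in replicate 2, or 2.81 and 3.69 per Mb, with median folds of 4.10 and 4.42. Fold enrichment is the authors' linear value at the summit, within 1 library. The nearest peak below the chromosome 17 block, 184 kb from its edge, had a fold of 34.5 in replicate 1 and 34.7 in replicate 2, higher than any peak inside a block. The nearest peak above the chromosome 6 block, 1042 kb away, had 20.5 and 23.9. The nearest peaks outside the remaining edges had folds between 3.14 and 5.56.

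Nearest protein-coding genes on the 2 sides carried few peaks of their own. Within 1 kb of the gene or inside it, ZNF254, a zinc finger gene below the chromosome 19 block, had 2 peaks in each replicate. PRIM2, which encodes the large subunit of DNA primase, and WSB1, which encodes a ubiquitin ligase adaptor, had 1 in each. The zinc finger gene ZNF37A had 1 in replicate 1 alone. LINC02798, which the table lists as protein-coding, H3-7, EMB, UQCRFS1, ZNF33B, ZNF716, LOC124901649, KHDRBS2, KCNJ18, OR4C12 and OR4C46 had 0 in both replicates.

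**Figure D1:**
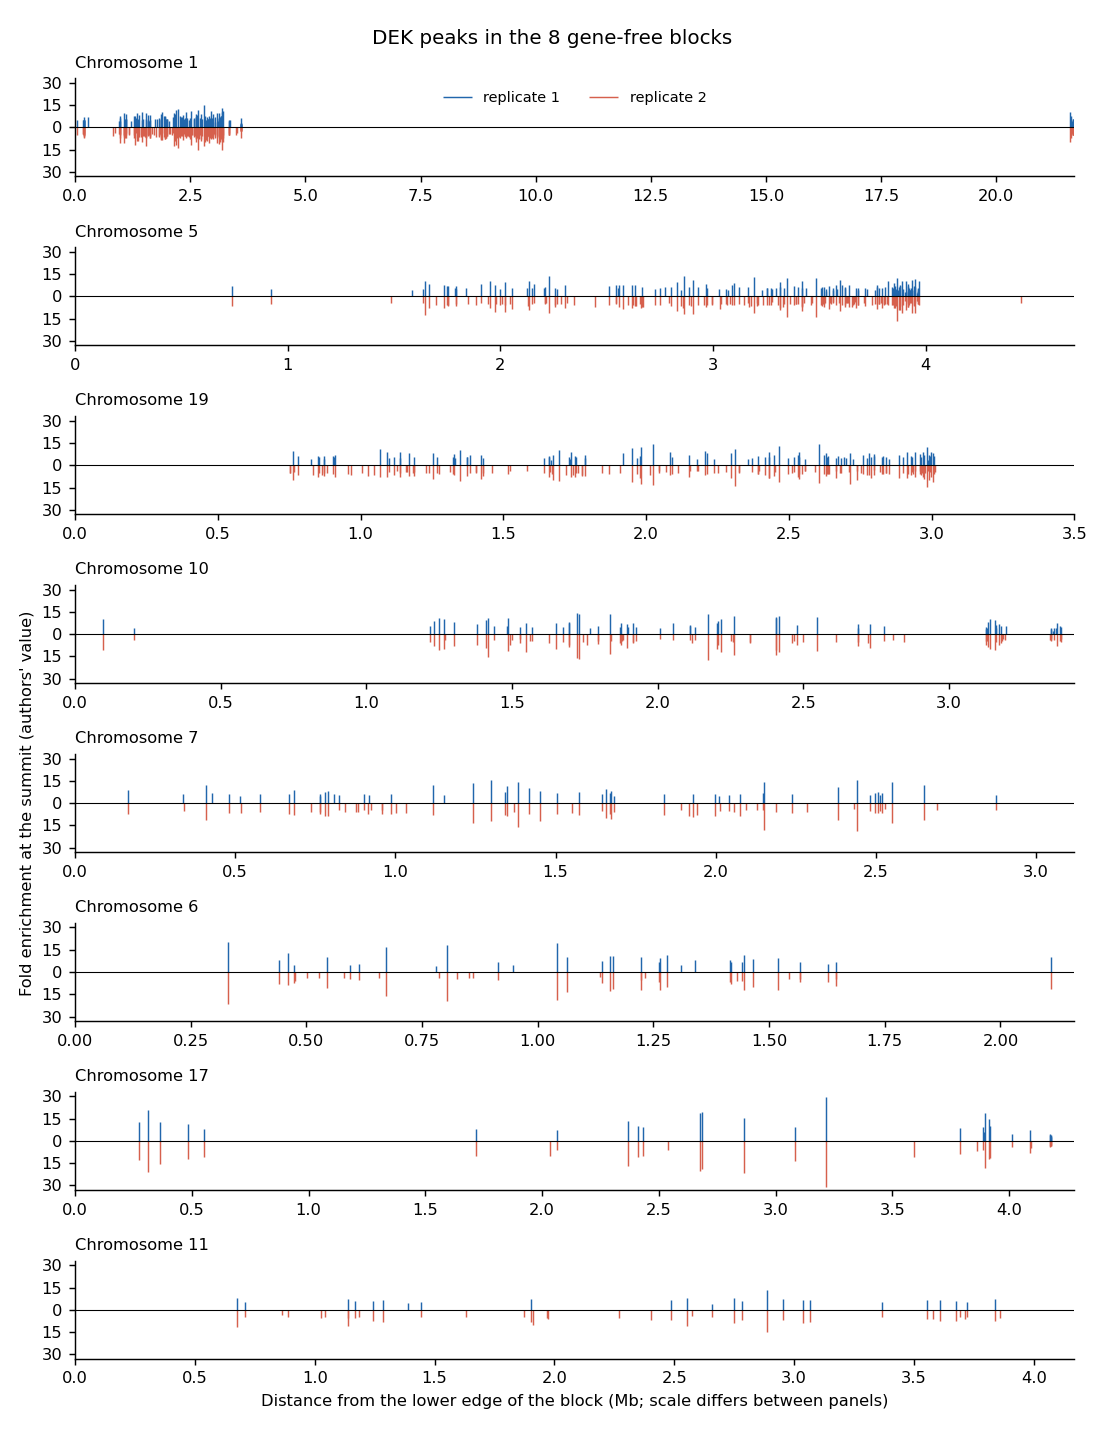
Summit positions of the members in each block as distance from the block's lower edge in Mb (the scale differs between panels), with fold enrichment upward for replicate 1 and downward for replicate 2. The replicates mirror each other at the taller peaks, and chromosome 1 shows a peak-free 18.0 Mb between a wide group of peaks and a narrow one.

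Peaks filled each block unevenly. On chromosome 1, 132 of 170 peaks of replicate 1 and 194 of 236 of replicate 2 lay in the first 3.57 Mb between the first summit and position 125183612 or 125183649. No summit followed for 18.0 Mb in either replicate, and the other 38 and 42 peaks lay within about 90.6 and 90.5 kb at the far end. Assembly gaps were not read here, so whether this empty stretch holds sequence that reads could match was not tested. Counted without this empty stretch, the block had 45.6 and 63.3 peaks per Mb. The densest 100 kb window of any block was at that far end, with 37 peaks in replicate 1 and 41 in replicate 2.

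Chromosome 5 had 2 isolated peaks, then no summit for 661 kb in replicate 1 and 566 kb in replicate 2, and then its other 133 and 187 peaks. Its densest 100 kb window (chr5:49596381-49696380) held 23 and 22. On chromosome 19 the summits spread over 2.25 and 2.26 Mb, and the longest empty stretch was 216 kb in replicate 1 and 60.8 kb in replicate 2. Chromosome 10 had an empty stretch of 1017 kb in both replicates after its first 2 peaks, and chromosome 17 one of 1165 kb in both after its first 5. Chromosome 6 ended with a lone peak after 466 and 465 kb without one. The longest gaps of chromosomes 1, 6, 10 and 17 fell at the same place in both libraries, whereas those of chromosome 11, 587 kb and 302 kb, fell at different places.

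The fold of the members was set beside that of all other peaks. Their median fold was 6.24 in replicate 1 (quartiles 5.12 and 8.19) and 5.82 in replicate 2 (4.85 and 7.76), or 6.03 ± 0.293 (SD, n = 2). Peaks outside the blocks had medians of 3.96 (3.5 and 4.51) and 3.87 (3.41 and 4.43). Every block had a median above the upper quartile outside, in both replicates, and so had the peaks of the 22 other gene-free stretches as a set, at 4.92 and 4.85. Some of those stretches reached the level of the blocks on few peaks. The median was 9.22 over 3 peaks and 6.63 over 6 in a stretch of chromosome 21, and 6.83 over 3 peaks and 7.60 over 4 in one of chromosome 13. Better-filled stretches also lay below the outside medians in both replicates. The stretch of chromosome 16 had 3.01 over 12 peaks and 3.37 over 13, and chr2:90361127-91442055 had 2.87 over 10 and 3.08 over 14. Among the 8 blocks, the lowest median was that of chromosome 1 at 5.61 and 5.35, and the highest that of chromosome 17 at 9.39 and 10.5. Chromosome 6 had 8.19 and 6.79, and the other 5 blocks lay between 5.82 and 6.83. The order of these 6 changed from replicate to replicate.

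Strong peaks were concentrated in the blocks. Of all analysed peaks, 0.705% in replicate 1 and 0.642% in replicate 2 reached 10-fold, and of the members 91 of 622 (14.6%) and 109 of 873 (12.5%). Seen the other way, the blocks held 91 of the 134 such peaks of replicate 1 (67.9%), with a 95% Wilson interval of 59.6 to 75.2. For replicate 2 it was 109 of 157 (69.4%), with 61.8 to 76.1. Intervals here cover counting error only. The share of members at this level was 42.9% and 59.4% on chromosome 17 and 33.3% and 28.9% on chromosome 6, and 4.17% and 12.2% on chromosome 11. Of 109 regions that overlapped between the replicates and reached 10-fold in both, 72 lay in the blocks, against 535 of all 12590 overlapping regions (4.25%).

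The strongest member lay on chromosome 17 (chr17:25920048-25920421), with a fold of 29.6 in replicate 1 and 31.0 in replicate 2 (30.3 ± 0.982, SD, n = 2). Its pileup, which is how many fragments overlap at the summit, was 126 and 137, as solved from the deposited fold and p. It ranked second among all overlapping regions by mean fold. Another 5 of the 10 highest members, by mean percentile of fold over both replicates, were on the same chromosome. They were chr17:23016162-23016679 at 21.0 and 20.8, chr17:25383654-25383940 at 18.8 and 20.1, and chr17:25389771-25390228 at 19.5 and 18.8. The last 2 of them were chr17:26603595-26604410 at 18.7 and 18.5, and chr17:25569098-25569406 at 15.7 and 21.4. The last named varied most between the replicates (18.5 ± 4.0, SD, n = 2), and the first of these 5 least (20.9 ± 0.145).

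Chromosome 6 supplied 3 of the 10 highest: chr6:58450538-58450944 at 20.3 and 21.7, chr6:59163021-59163429 at 19.8 and 18.6, and chr6:58924771-58925226 at 18.2 and 19.9. The first of these was also the first peak of its block from the lower edge. The tenth was on chromosome 7 (chr7:60310679-60311019), at 15.8 and 18.9. In the other blocks the leading member by mean percentile had a lower fold. It reached 14.1 and 16.2 on chromosome 10 (chr10:40440986-40441287), 12.2 and 16.4 on chromosome 5 (chr5:49563512-49563851), and 13.3 and 14.9 on chromosome 11 (chr11:53307612-53307899). On chromosome 1 it reached 12.9 and 14.9 (chr1:124757578-124757932) and on chromosome 19 14.3 and 13.1 (chr19:26203806-26204173). By mean fold, a different member led on chromosome 10 (chr10:40892059-40892566, at 13.8 and 17.3) and on chromosome 19 (chr19:27163020-27163379, at 12.4 and 15). The leading members of chromosomes 1 and 5 and chr19:27163020-27163379 stood at matching places in a run of peaks that recurs in these 3 blocks, described below. They are therefore not independent regions.

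**Figure D2:**
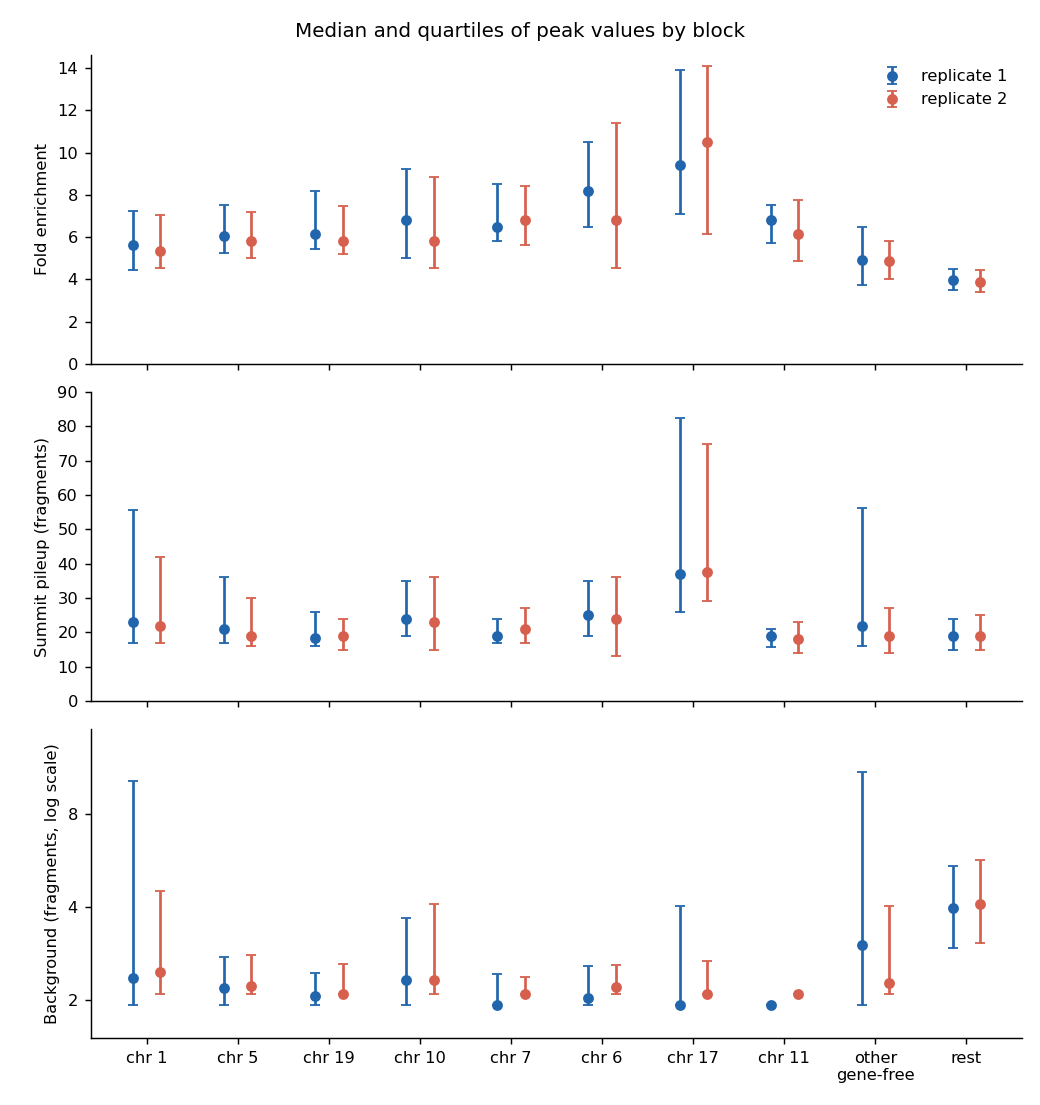
Median (point) and quartiles (bars) of fold enrichment, summit pileup and background in fragments (log scale) of the peaks of each block, of the 22 other gene-free stretches and of all remaining peaks, by replicate. Fold is higher in every block than in the rest, while the pileup stands apart only on chromosome 17, with medians of 37.0 and 37.5 against 19, and the background is lower in every block.

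The 2 terms of the fold were then read apart. Fold enrichment was read as pileup plus 1 over background plus 1, where the background is the number of fragments the caller took as the local level. The median pileup of the members was 22 in replicate 1 and 21.0 in replicate 2, against 19 in both outside. The median background was 2.13 and 2.17 fragments, against 3.95 and 4.07. Chromosome 17 differed from the other blocks, with median pileups of 37.0 and 37.5 where the others ranged from 18.0 to 25. The fold was also compared at like pileup, where by this formula it mainly restates the background. Peaks of 15 to 19 fragments had a median fold of 5.80 and 5.50 in the blocks and 3.98 and 3.90 outside. For 30 to 49 fragments it was 10.3 and 10.2 inside and 4.06 and 3.97 outside. At 50 or more fragments, where 14.1% and 12.9% of the members lay, the medians were close, 4.56 and 4.84 inside against 4.52 and 4.61 outside. There the median background was the higher one in the blocks, 24.1 and 18.1 fragments against 12.4 and 12.2.

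Many members sat on the lowest background that each list contains, 1.93 fragments in replicate 1 and 2.09 in replicate 2. MACS2, the caller named in the submitters' processing notes, does not let the local level fall below the genome-wide level, so at this value the level around the peak was no higher than that. Of all analysed peaks 3.81% and 5.63% were at this floor, and of the members 253 of 622 (40.7%, 95% Wilson interval 36.9 to 44.6) and 394 of 873 (45.1%, 41.9 to 48.4). The share was highest on chromosome 11 (91.7% and 87.8%) and chromosome 17 (64.3% and 68.8%), and lowest on chromosome 1 (27.6% and 32.6%). The 22 other gene-free stretches had similar shares, 37.5% and 43.9%, with intervals of 27.2 to 49 and 35.9 to 52.2. Sequence outside all 30 stretches had 2.42% and 3.93%.

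Widths were compared in the same way. The median member was 232 bp wide in replicate 1 and 218 bp in replicate 2, against 287 and 278 bp outside and 261 and 227 bp in the 22 other gene-free stretches. The narrowest peaks of the lists were 178 and 163 bp. Chromosome 11 had the narrowest members, with medians of 204 and 205 bp, and chromosome 17 the widest, with 294 and 278 bp.

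**Figure D3:**
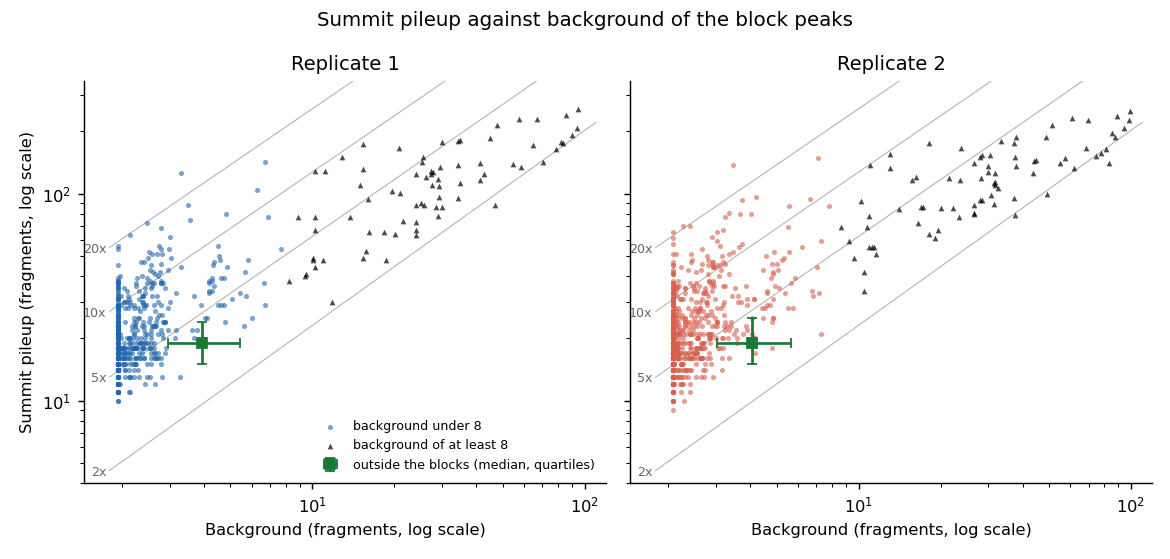
Summit pileup against background of every member, both in fragments on log scales, by replicate; grey lines mark folds of 2, 5, 10 and 20, triangles are members with a background of at least 8, and the green square gives the median and quartiles outside the blocks. Many members (253 and 394) line up at the lowest background, and a separate arm of 75 and 79 members has high background and high pileup.

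A minority of members stood on a high background, which was also seen outside the blocks. The median background was 77.9 and 68.2 fragments in the gene-free stretch of chromosome 16, and 21.8 and 24.8 in chr2:90361127-91442055. A background of at least 8 fragments, a limit chosen after seeing the values, was found in 75 members of replicate 1 (12.1%) and 79 of replicate 2 (9.05%). Their median pileup was 113 and 119 fragments, their median fold 3.88 and 3.73, and their median width 343 and 366 bp. The other 547 and 794 members had median pileups of 20 and 19 and median folds of 6.49 and 6.06. Only 4 and 2 of the members with high background reached 10-fold.

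These members crowded into a few short stretches. The largest lay at the far end of the chromosome 1 block (chr1:143184645-143266924 in replicate 1), with 37 and 41 peaks in 82.3 kb. Folds there ran from 1.86 to 10.7 in replicate 1 and from 1.69 to 9.56 in replicate 2, over backgrounds of 11.1 to 82.0 and 13 to 85.6 fragments. On chromosome 5 (chr5:49599542-49661841) 22 peaks of replicate 1 lay in 62.3 kb and 22 of replicate 2 in 67.8 kb, with median backgrounds of 15.4 and 16. The highest backgrounds stood just before the 18.0 Mb empty stretch of chromosome 1. There, 6 peaks of replicate 1 (chr1:125178915-125184041) lay over 78.8 to 94.2 fragments and had folds of only 2.07 to 2.79. In replicate 2 the stretch was longer (chr1:125167129-125184085, 17.0 kb) and had 7 peaks with a median background of 89.2. Its first peak overlapped one of replicate 1 whose background of 7.65 was just under the limit of 8.

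Chromosome 17 had 5 such peaks in each replicate near its upper end (chr17:26880961-26885904), with median backgrounds of 29.2 and 31.6. Chromosome 10 had 5 and 4 in 2 short stretches, with backgrounds of 8.19 to 11.8. Chromosomes 6, 7, 11 and 19 had 0. The crowded stretches recurred in both libraries: 73 of the 75 peaks of replicate 1 overlapped a peak of replicate 2, and 72 of the 79 the other way.

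The overlap of the replicates was then compared. Of all analysed peaks, 67.8% of replicate 1 and 52.2% of replicate 2 overlapped a peak of the other list by at least 1 bp. Among members the figures were 540 of 622 (86.8%, 95% Wilson interval 83.9 to 89.3) and 536 of 873 (61.4%, 58.1 to 64.6). By block the share ran from 83.6% on chromosome 19 to 95.8% on chromosome 11 in replicate 1. In replicate 2 it ran from 54.8% on chromosome 19 to 81.2% on chromosome 17. The overlapping peaks formed 535 regions.

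Members had higher −log10 q than other peaks, with medians of 10.2 and 8.79 against 4.37 and 4.3, so the share was also read at matched strength. The top quartile of all peaks by −log10 q held 77.7% of the members of replicate 1 and 71.8% of those of replicate 2. Within this quartile, 94.2% of the members of replicate 1 overlapped (91.7 to 96.0), against 92.2% outside (91.3 to 92.9). In the next lower quartile of replicate 1 it was 66.3% (55.6 to 75.5) against 74.4% (73.1 to 75.6). For replicate 2 the top quartile had 74.3% of the members (70.8 to 77.6) against 85.5% outside (84.6 to 86.4). In the next lower quartile of replicate 2 it was 31.8% (24.4 to 40.2) against 56.7% (55.5 to 58.0). By quartile, the intervals of the 2 sets in replicate 1 thus overlapped, with members higher in some quartiles and lower in others. Its 3 lower quartiles held only 19, 37 and 83 members, and overlapping intervals do not show that the shares are equal. In replicate 2 the higher share over all members was reversed within quartiles: members were lower in all 4. In its 2 weakest quartiles the shares were 15.6% against 27.3%, where the intervals overlapped, and 28.2% against 41.3%. Strength can still differ between the sets within the top quartile.

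**Figure D4:**
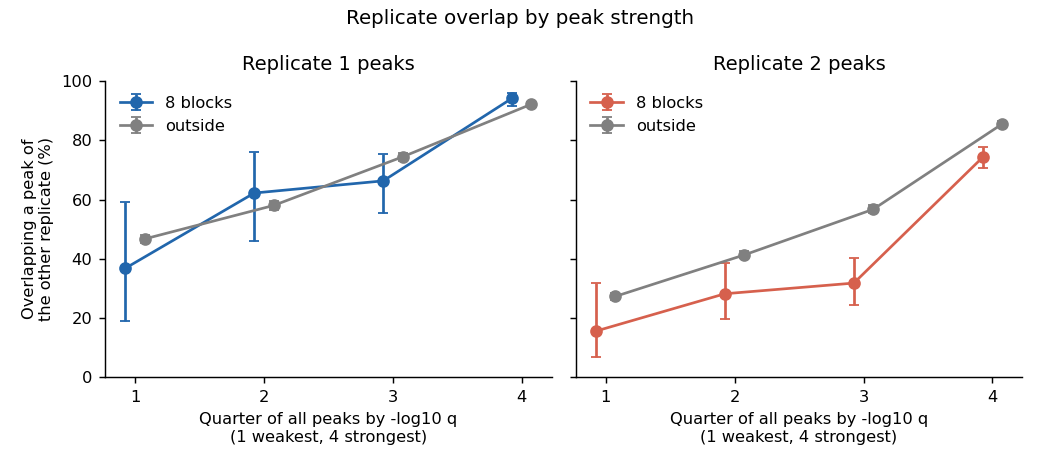
Share of peaks overlapping a peak of the other replicate, in percent with 95% Wilson intervals, by quartile of all peaks of that replicate ranked by −log10 q, for the blocks and for all other peaks. In replicate 1 the intervals of both sets overlap in all 4 quartiles. In replicate 2 the blocks lie below in all 4, with separate intervals in the upper 3, for example 74.3% against 85.5% in the top quartile.

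Where both replicates had a member, they placed it closely. The summits differed by a median of 16 bp, with 87.9% within 50 bp, against 72.0 bp and 37.9% in 12055 overlapping regions outside. Members were narrower and had higher −log10 q than other peaks, and the offsets were not matched for width or strength. Every block had a median offset between 10.0 bp (chromosome 17) and 20 bp (chromosome 19). Spearman's coefficient of the fold between replicates was 0.839 over the 535 regions and 0.582 outside, given without a p because regions are not independent and the sets differ in their range of fold. Between replicates the fold of a region differed by a median of 0.176 on the log2 scale in the blocks and 0.172 outside.

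Spacing of summits was then measured within each block and library. Neighbouring summits were a median of 15.2 kb apart in replicate 1 (quartiles 5.00 and 37.0) and 10.5 kb in replicate 2 (3.92 and 25). Outside the blocks the medians were 43.2 and 34.1 kb. The closest neighbours were on chromosome 1, with medians of 8.87 and 6.29 kb. Chromosome 19 had 13.2 and 9.19 kb and chromosome 5 had 13.2 and 8.46 kb. The widest were on chromosome 11, at 72.9 and 57.7 kb, and chromosome 17, at 65.8 and 65.7 kb. Distances under 1 kb made up 6.84% and 7.17% in the blocks and 6.48% and 7.34% outside. No 2 members of 1 library were closer than 292 bp.

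Distances in 3 blocks clustered at whole multiples of a length near 1 kb. For every trial length from 100 to 4000 bp, all distances between summits of 1 block and library were folded on that length and their mean cosine was taken, which is 1 when all are whole multiples and near 0 when they are spread evenly. With distances up to 20 kb, chromosome 5 gave its highest value at 1024 bp in replicate 1 (0.25, 237 distances) and 1028 bp in replicate 2 (0.21, 353 distances). Chromosome 19 gave 1016 bp (0.31, 126 distances) and 1022 bp (0.28, 244 distances). Chromosome 1 gave 652 bp (0.10) and 1017 bp (0.10), so its replicates differed at this range. The highest of 3901 lengths is always above 0, distances share summits, and no p is given. Chromosomes 5 and 19 thus gave nearly the same length in both libraries.

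Longer distances were tried after this result was seen. With distances up to 200 kb and only members with a background under 8 fragments, the best length was 1018 and 1019 bp on chromosome 5 (0.20 and 0.13). It was 1018 bp in both replicates of chromosome 19 (0.27 and 0.20) and 1019 and 1018 bp on chromosome 1 (0.12 and 0.11). The next best separate length reached 0.11 and 0.07 on chromosome 5, 0.13 and 0.05 on chromosome 19, and 0.10 and 0.05 on chromosome 1. At distances up to 500 kb the length was still 1018 to 1020 bp in all 3 blocks and both replicates, with values of 0.20 and 0.14 on chromosome 19, 0.13 and 0.07 on chromosome 5, and 0.08 and 0.06 on chromosome 1. There the lead over the next best length was thin in 2 cases, 0.07 against 0.06 in replicate 2 of chromosome 5 and 0.08 against 0.08 in replicate 1 of chromosome 1. The short range on chromosome 1 depended on the crowded members: pooled distances up to 20 kb of both replicates gave 264 bp with them and 1016 bp without. Read by replicate without them, distances up to 50 kb still gave 343 bp in replicate 1 (0.18), with 1017 bp next (0.18). Replicate 2 gave 1020 bp there (0.19).

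The values at 1018 bp, the best length of replicate 1 of chromosome 5, were read in every block over the same distances. On chromosomes 1, 5 and 19 they restate the best lengths just given, since they come from the same summits. Within 127 bp of a whole multiple lay 37.6% and 35.5% of the distances up to 200 kb on chromosome 19, 35.1% and 32.0% on chromosome 5, and 30.7% and 30.9% on chromosome 1. Even spread would give 25%, and distances outside the blocks gave 25.1% and 24.8% with values of −0.01 in both replicates. The chromosome 7 block gave 0.14 and 0.06 at this length, with ranks of 56 and 184 among the 3901 lengths and 32.1% and 28.6% of its 193 and 399 distances near a multiple. Chromosome 10 gave −0.02 and 0.04, with 28.3% in both replicates. On chromosome 6 the values were −0.02 and 0.06, and chromosome 11 gave −0.04 in replicate 2, the one with enough distances.

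**Figure D5:**
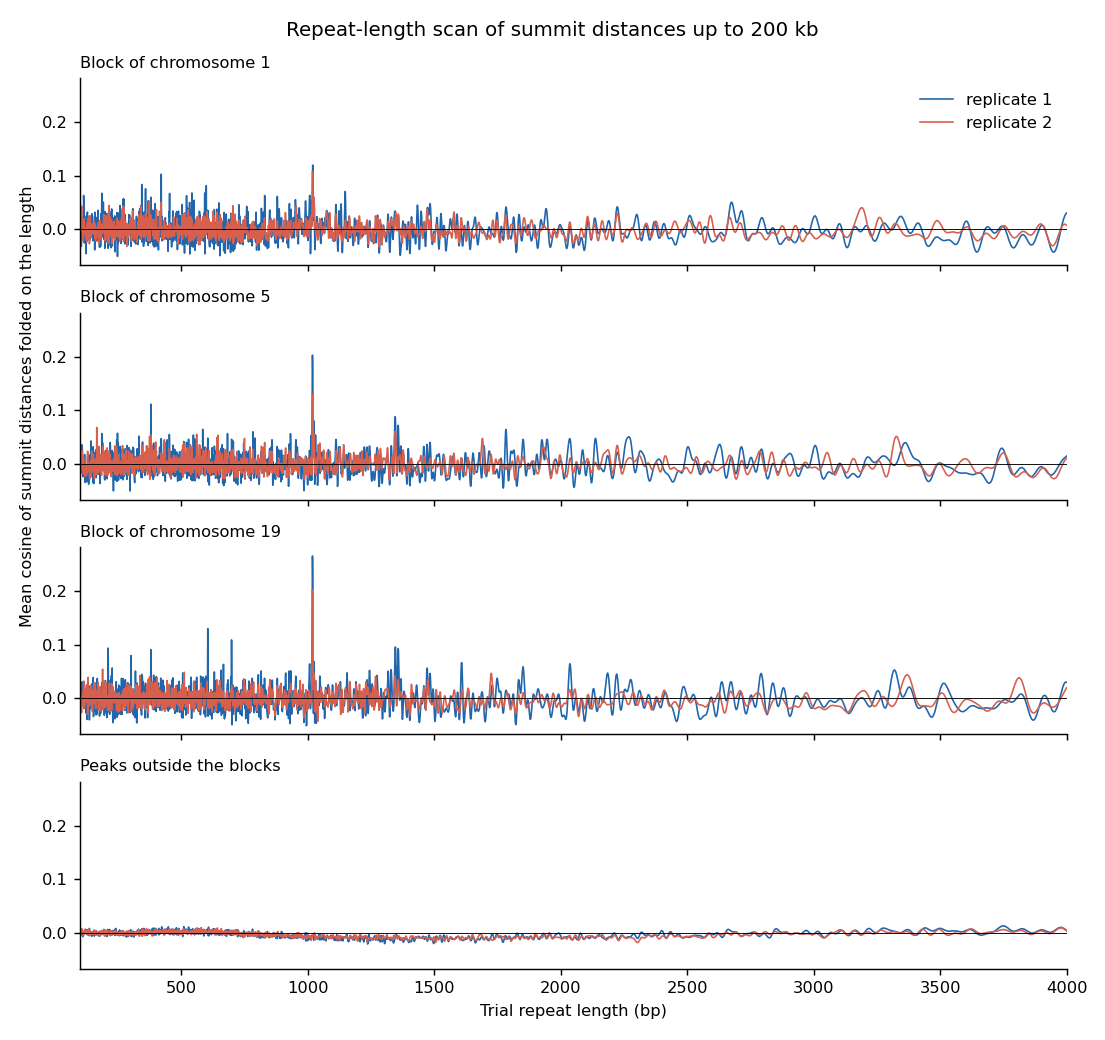
Mean cosine of summit distances up to 200 kb folded on each trial length from 100 to 4000 bp, for members with a background under 8 fragments in the blocks of chromosomes 1, 5 and 19 and for peaks outside the blocks, by replicate. The highest point of all 6 block curves is at 1018 or 1019 bp, from 0.27 in replicate 1 of chromosome 19 down to 0.12 in replicate 1 of chromosome 1, where the next best length reaches 0.10, and 0.11 in replicate 2; outside, that length is at −0.01.

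In the 3 other blocks with enough distances, no length was the best of both replicates at the same range. With distances up to 200 kb, chromosome 10 led to 526 bp in replicate 1 and 3045 bp in replicate 2, chromosome 7 to 1009 and 126 bp (1016 bp in replicate 2 at distances up to 50 kb), and chromosome 6 to 519 and 764 bp. Chromosomes 11 and 17 had at most 100 distances in this range and library. On chromosome 7, lengths near 1 kb recurred across ranges: up to 500 kb, replicate 1 had 1019 bp (0.14) next to its best of 2313 bp (0.15). Replicate 2 gave 952 bp there (0.11). At the same range the best lengths differed between replicates in each of chromosomes 6, 7 and 10, so no repeat length is given for them. The regular spacing on chromosomes 1, 5 and 19 is measured on the modelled arrays of GRCh38. Part of the peak layout also recurred between these 3 blocks. Regions overlapping between the replicates had summits at 49538345, 49563647 and 49576983 on chromosome 5. With nearly equal steps, they lay at 27137845, 27163166 and 27176483 on chromosome 19 and at 124732402, 124757713 and 124771037 on chromosome 1. The 3 blocks are thus not independent readings of the length.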

How the data were processed

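DEK ChIP-seq of 786-O cells was analysed from 1 peak list per library. Per the labels' protocols, a sonication ChIP kit and an Illumina library kit were used. Per the submitters' processing notes, the build was GRCh38 (hg38) and the tools, listed without roles, were MACS2 2.2.7.1, Bowtie2 2.2.5, deepTools 3.5.1, cutadapt 1.18, ChIPseeker 1.32.1 and DiffBind 3.6.5. The sources used here do not give whether peaks were called against a control library. The authors deposited, for each peak, a score, the fold enrichment as a linear ratio, the −log10 p and −log10 q, and the summit offset. The smallest deposited −log10 q was 1.309 and 1.303. Of 19128 and 24580 peaks, 19015 and 24457 on chromosomes 1 to 22 and X were kept.

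Pileup and background were solved from the fold and the Poisson p, and met the p within 5e-05 in 100.0% of the peaks of both lists. Read depth is not in the lists, and at a median of 19.0 fragments outside the blocks a single fold has a wide counting error. Regions joined peaks of both replicates overlapping by 1 bp. A region's fold is that of its strongest peak per library. Printed coordinates are 1-based. Genes and their positions came from RefSeq's table of GRCh38.p14. No genome sequence was used here, so satellite sequence, GC content and assembly gaps were not read. The blocks, the measures and the alternatives were chosen with earlier results of these data known. The regions and genes named are the strongest member of each block, the 10 highest members by mean percentile of fold, the peaks nearest each edge and the nearest protein-coding gene on each side, of which 1 is not reported here. Computations ran under Python 3.11.15 with numpy 2.4.6, pandas 2.3.3 and scipy 1.17.1, and were tested on simulated data.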

Additional observations from a re-analysis of the deposited data

How the results depend on the processing

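The density of summits in the blocks relative to the rest, 2.24, became 4.99 with −log10 q of at least 5 and 14.6 with a fold of at least 5 (2.14 to 2.34 with 1 replicate left out). The blocks were chosen by peak counts in these lists, so the ratio depends on that choice and is a description. It was not above 1 in every block. Chromosome 11 had 5.75 peaks per Mb in replicate 1 against 6.17 outside, and chromosome 17 had 7.48 in replicate 2 against 7.91. In the other replicate both were above the density outside, at 9.83 and 6.55. The median fold of 6.03 became 6.45 with −log10 q of at least 5 and 6.67 among overlapping peaks only (5.82 to 6.24 with 1 replicate left out). The median spacing of 12.9 kb, the mean of both replicates, became 16.9 kb among overlapping peaks only (10.5 to 15.2 kb with 1 replicate left out). The share of members with a partner, 74.1% as the mean of both replicates, ranged from 61.4% to 86.8% with 1 replicate left out and from 70.9% to 76.5% under the other settings.

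With the distances of both replicates pooled, the best length of chromosome 5 was 1026 bp at distances up to 20 kb, 1007 bp up to 5 kb, and 1019, 1018 and 1018 bp up to 50, 200 and 500 kb for members with a background under 8 (1024 to 1028 bp with 1 replicate left out). On chromosome 19, 1020 bp became 1000 bp up to 5 kb (1016 to 1022 bp with 1 replicate left out). On chromosome 1, 264 bp became 599 bp up to 5 kb, 1016 bp with a background under 8, and 1019, 1019 and 1018 bp up to 50, 200 and 500 kb (652 to 1017 bp with 1 replicate left out). The limit of 8 fragments and the distances over 20 kb were chosen after seeing the data, and the cause of these changes was not tested. No paired analysis was possible because the series has 1 group.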
